A study of Homo sapiens with 4 samples.

Results

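The genes of the phagocyte NADPH oxidase were compared between naive NB4 cells and NB4 cells resistant to arsenic trioxide (ATO). The members were the probes that the array names CYBB, CYBA, NCF1, NCF4, RAC1 or RAC2, which gave 13 of the 41000 probes for 6 of the 30811 gene names on the array. NB4 is an established human acute promyelocytic leukemia (APL) cell line. The naive group was NB4 itself and the resistant group was NB4-VM-AsR1, a clone that had been kept free of ATO for 1 week. Both were grown in RPMI with 10% FBS, no other agent or allele is named for either group, and the naive line served as the control. Each line was represented by 2 independent flasks, and each flask by 1 of 4 one-colour Agilent arrays. Because the resistant group is a single clone, a difference between the lines cannot be told apart from a difference between clones. The arrays lay on 1 slide with the naive flasks at positions 1 and 2 and the resistant flasks at positions 3 and 4, so position and line cannot be told apart either.

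The oxidase makes superoxide from oxygen with electrons taken from NADPH. Its catalytic core sits in the membrane as a pair of proteins, gp91phox (CYBB) and p22phox (CYBA). In resting cells regulatory proteins, among them p47phox (NCF1) and p40phox (NCF4), stay in the cytosol, and on stimulation they move to the membrane, where a Rac GTPase (RAC1 or RAC2) completes the enzyme. Neutrophils and their precursors are known for high levels of this oxidase, and its genes are switched on as promyelocytes mature.

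All values below are log2 signals relative to the 75th percentile of the array, so that 0 is that percentile and 1 unit is a 2-fold step. A difference is the resistant mean minus the naive mean, given with its standard error (SE) from limma over 2 flasks per line. To be called, a probe had to differ by at least 2-fold with an adjusted p (Benjamini-Hochberg) under 0.05. Probes differ in how brightly they report the same amount of RNA, so values of different probes were not compared as levels. Where signals of a marker list are summed, the sum is a description that rests mostly on the brightest probes and does not rank the genes by RNA. The number of probes well above background was 28055 and 28185 in the naive flasks, and 27922 and 28244 in the resistant flasks. With 2 flasks per line an exact two-sided permutation test of a single probe cannot go below p = 0.333, and the p-values given borrow the spread of all other probes through limma. Where 1 flask is left out below, the lone flask of its line is assumed to vary like the other line, so that the pair kept sets the spread. The SD over probes of the log2 difference between flasks was 0.71 for the naive pair and 0.37 for the resistant pair. Calls over the array rose from 1487 to 3733 and 4536 without the first or the second naive flask, and fell to 743 and 728 without the first or the second resistant flask. A call gained or lost in this way is given with its difference, and is not by itself a larger or smaller difference.

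Of the 13 oxidase probes, 12 were well above background on all 4 arrays, none of them saturated, and these 12 were tested. None was called by limma in either direction, against 5.27% of the 28221 probes tested over the whole array, 2.3% higher and 2.97% lower. At an unadjusted p below 0.05 limma found 5 oxidase probes, all higher in the resistant line. Over the array 19.1% of probes reached that level, 9.3% with the higher signal in the resistant line. The methods' t-test found 2 of the 12 at an unadjusted p below 0.05, against 4138 of the 28221 probes over the array, and 0 after adjustment. Both resistant flasks lay above both naive flasks for 5 of the 12 probes, which stand for 3 of the 6 genes, namely CYBB, NCF1 and NCF4. The same arrangement held for 24.5% of all probes tested. For the other 7 probes, of CYBA, RAC1 and RAC2, the flasks of the lines overlapped, and for 0 of the 12 did both resistant flasks lie below both naive flasks, against 28% over the array. The median difference over the 6 genes was 0.44, beside -0.02 over all probes. Probes of 1 gene share their target, so they are not separate observations of a difference.

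**Figure D1:**
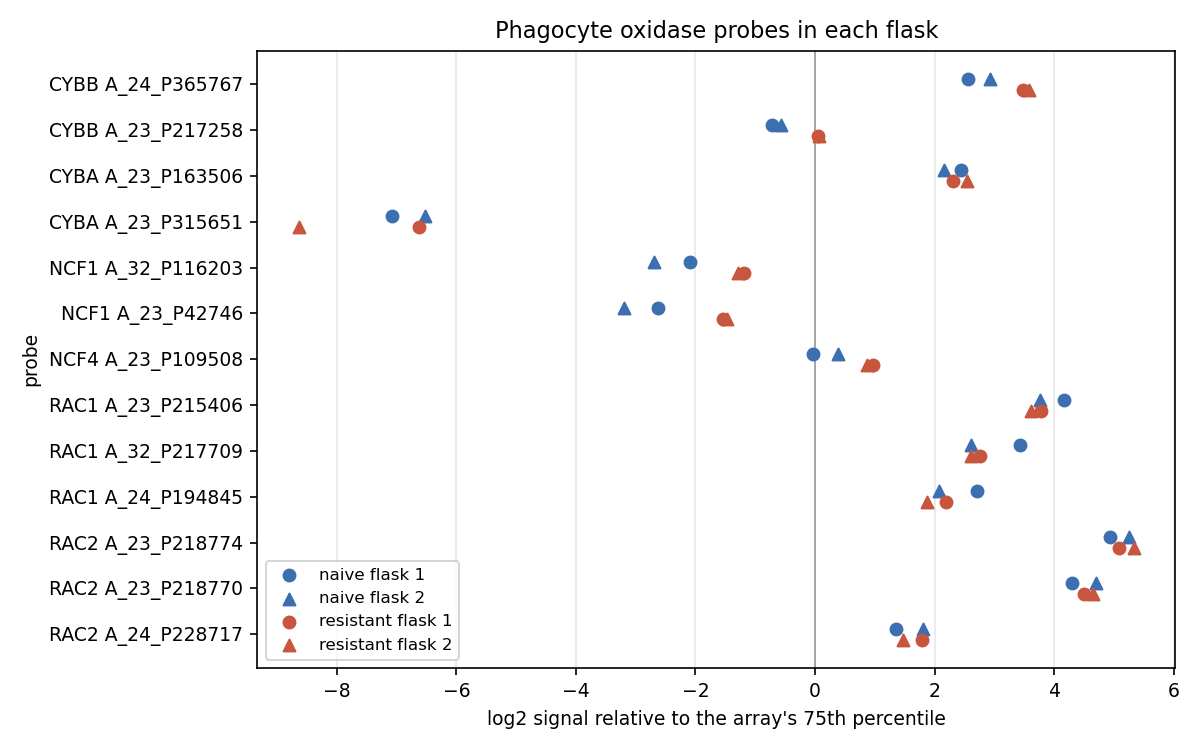
Log2 signal relative to the array's 75th percentile (x axis) of the 13 oxidase probes (y axis) in each of the 4 flasks, with naive flasks in blue and resistant flasks in red. Both red points lie right of both blue points for the CYBB, NCF1 and NCF4 probes, and the colours mix for CYBA, RAC1 and RAC2.

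Of the membrane pair, only CYBB, which carries the flavin and heme groups that pass the electrons, had resistant values apart from the naive ones. CYBB probe A_24_P365767 (hg19 chrX:37672561-37672620, plus strand) read 2.56 and 2.92 in the naive flasks and 3.48 and 3.58 in the resistant flasks. The second CYBB probe, A_23_P217258, read -0.73 and -0.57 in the naive flasks and 0.05 and 0.06 in the resistant flasks. Both resistant flasks were above both naive flasks on each probe, and the gap between the lines was wider than the gap within either line. The difference was 0.79 (SE 0.24, limma adjusted p = 0.174) on the first probe, a 1.73-fold higher signal with a 95% interval of 1.12 to 2.65. On the second probe it was 0.70 (SE 0.22, limma adjusted p = 0.176). CYBB therefore differed in the same direction and by nearly the same amount on both probes, without passing the test.

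CYBA makes p22phox, the partner that stabilizes gp91phox and offers the docking site for p47phox. CYBA probe A_23_P163506 read 2.45 and 2.15 in the naive flasks and 2.31 and 2.54 in the resistant flasks. The lines overlapped, and the difference was 0.12 (SE 0.24, limma adjusted p = 0.83), with a 95% interval of -0.49 to 0.74. The upper end of that interval is a 1.67-fold higher signal in the resistant line. The second probe under this name, A_23_P315651, is drawn from a cDNA placed at hg19 chr16:88710577-88710636 on the minus strand. It read -7.08 and -6.52 in the naive flasks and -6.62 and -8.63 in the resistant flasks, was not well above background on any array, and was not tested.

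Among the cytosolic proteins the difference was wider for NCF1, the organizer p47phox that bridges the cytosolic complex to p22phox, than the 2-fold step that a call required, but its adjusted p missed the threshold. NCF1 probe A_32_P116203 read -2.09 and -2.70 in the naive flasks and -1.19 and -1.28 in the resistant flasks. NCF1 probe A_23_P42746 read -2.63 and -3.20 in the naive flasks and -1.54 and -1.48 in the resistant flasks. The resistant flasks lay close together and above both naive flasks on each probe, while the naive flasks were 0.61 and 0.56 apart. The difference was 1.16 (SE 0.29, limma adjusted p = 0.106) on the first probe and 1.40 (SE 0.28, limma adjusted p = 0.0573) on the second, which are 2.23-fold and 2.64-fold higher signals in the resistant line. The 95% intervals were 1.35-fold to 3.68-fold and 1.63-fold to 4.29-fold, so both reached below 2-fold. Without the first naive flask the differences were 1.46 and 1.68 and without the second 0.85 and 1.12, with the spread then set by the close resistant pair. In those fits both probes were called without the first naive flask (limma adjusted p = 0.00541 and 0.00295), and the second alone without the second naive flask (limma adjusted p = 0.0120). With the spread set by the naive pair, that is without either resistant flask, no NCF1 probe was called.

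The sequences of the NCF1 probes are shown because they limit how far the signal can be assigned to this gene. Each is a stretch of 60 bases of the transcript, and the 13 bases in capitals are the end of the first and the start of the second, so the probes read adjoining parts of the same RNA:
A_32_P116203: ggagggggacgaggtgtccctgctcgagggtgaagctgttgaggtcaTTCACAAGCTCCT
A_23_P42746: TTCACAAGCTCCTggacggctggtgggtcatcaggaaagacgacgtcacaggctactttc
The array's annotation gives each of them the accession of NCF1 and that of NCF1C, which RefSeq lists as a transcribed pseudogene on chromosome 7. The first probe is placed at hg19 chr7:74576485-74576544 on the minus strand, whereas NCF1 itself lies on the plus strand in RefSeq. RNA of NCF1 and RNA of such a copy cannot be told apart by these probes, and the array lists no probe under the names NCF1B or NCF1C.

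NCF4 makes p40phox, which binds a membrane lipid of the phagosome. NCF4 probe A_23_P109508, the only one for this gene, read -0.04 and 0.39 in the naive flasks and 0.98 and 0.87 in the resistant flasks. Both resistant flasks were above both naive flasks. The difference was 0.75 (SE 0.25, limma adjusted p = 0.204), a 1.68-fold higher signal with a 95% interval of 1.08 to 2.63.

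RAC1 is the Rac GTPase found in most cell types, and RAC2 is the form of blood cells that serves the oxidase of neutrophils. RAC1 probe A_23_P215406 (hg19 chr7:6443013-6443072), spotted 10 times on each array, read 4.17 and 3.76 in the naive flasks and 3.78 and 3.61 in the resistant flasks. Its 10 spots agreed closely on every array, with SDs between 0.01 and 0.06, so the spread between spots was small beside the gap of 0.41 between the naive flasks. The first naive flask stood above the other 3 flasks, which were close together. The difference was -0.27 (SE 0.25, limma adjusted p = 0.615), with a 95% interval of -0.92 to 0.37.

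The remaining RAC1 probes gave differences of -0.33 (A_32_P217709, limma adjusted p = 0.643) and -0.36 (A_24_P194845, limma adjusted p = 0.584), again with the first naive flask highest. A_32_P217709 read 3.42 and 2.60 in the naive flasks and 2.76 and 2.60 in the resistant flasks, and A_24_P194845 read 2.71 and 2.07 in the naive flasks and 2.20 and 1.87 in the resistant flasks. Both are named for RAC1 by the array, but the header's build places the first on chr4:46726302-46726361 and the second on chrX:136523863-136523922, and not on chromosome 7, where RAC1 lies. RefSeq lists RAC1 pseudogenes on chromosomes 4 and X. The sequences are shown for that reason. They align over 51 bases, 48 of which match, and the capitals mark the 3 that differ:
A_24_P194845: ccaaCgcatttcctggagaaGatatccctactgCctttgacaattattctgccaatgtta
A_32_P217709: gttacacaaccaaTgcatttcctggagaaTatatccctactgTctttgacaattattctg
Counted from 1 at the 5′ end of A_24_P194845, with its base written first, the differences are C5T, G21T and C34T. Signal of RAC1 and signal of a similar sequence cannot be told apart by these probes, and their differences between the lines were close to that of the probe on chromosome 7.

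The RAC2 probes differed by 0.11 or less between the lines. RAC2 probe A_23_P218774 (hg19 chr22:37621364-37621423, minus strand) read 4.94 and 5.25 in the naive flasks and 5.09 and 5.33 in the resistant flasks. The flasks of the lines alternated, and the difference was 0.11 (SE 0.25, limma adjusted p = 0.846) with a 95% interval of -0.51 to 0.74. The other RAC2 probes gave 0.07 (A_23_P218770, limma adjusted p = 0.909) and 0.05 (A_24_P228717, limma adjusted p = 0.948).

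**Figure D2:**
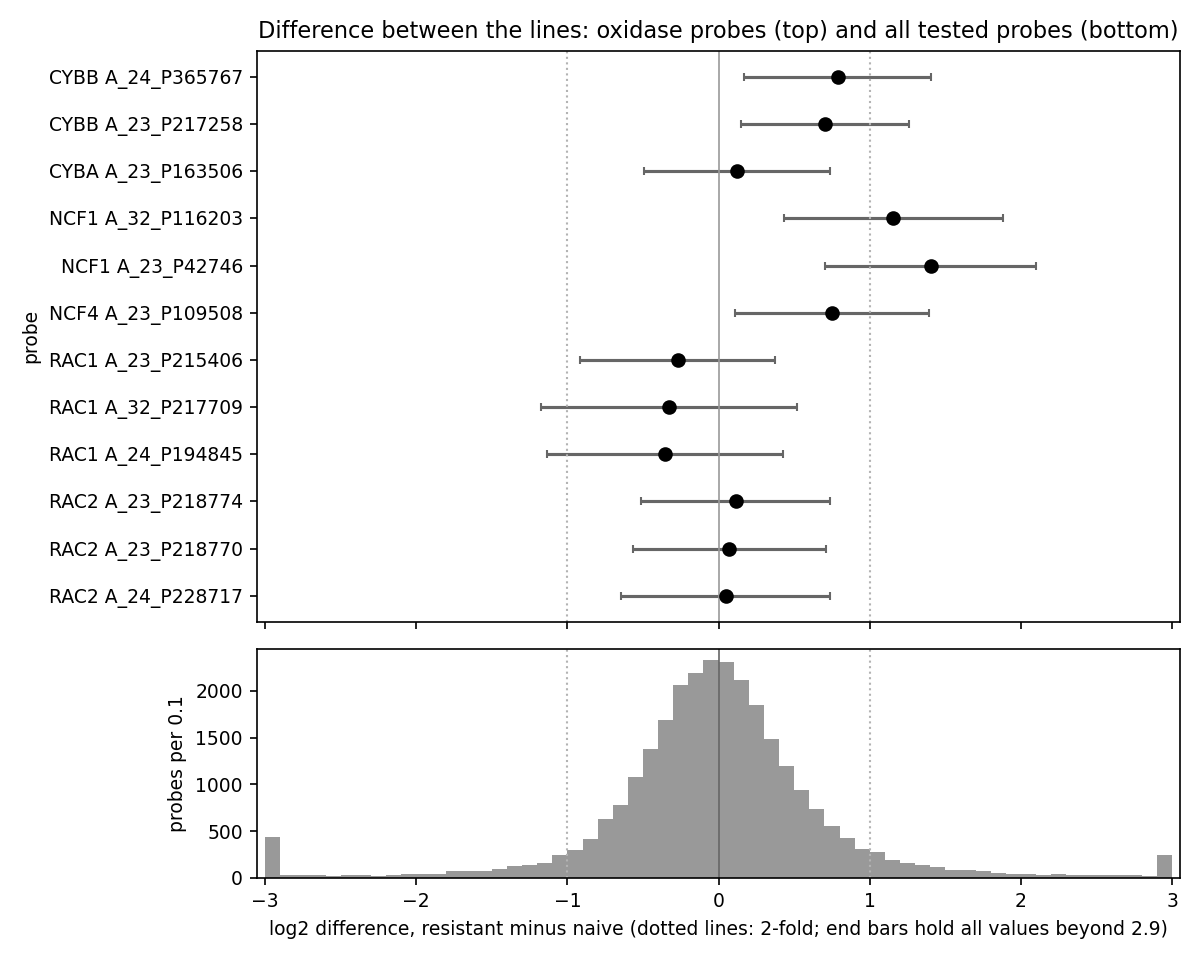
Difference in log2 signal, resistant minus naive (x axis), of the 12 tested oxidase probes with 95% intervals from limma (top), above the number of all 28221 tested probes per 0.1 (bottom), where the end bars hold every value beyond 2.9. The intervals of the CYBB, NCF1 and NCF4 probes lie above 0 before adjustment, and those of CYBA, RAC1 and RAC2 include 0.

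Probes of 1 gene gave much the same difference, with a spread of 0.08 for CYBB, 0.25 for NCF1, 0.08 for RAC1 and 0.07 for RAC2. On all 12 tested probes the naive flasks were farther apart than the resistant flasks, as they were for 71.3% of the tested probes over the whole array. The SD of the log2 difference between flasks over the array was 0.71 for the naive pair and 0.37 for the resistant pair.

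Reference promoter sequence was at hand for 3 of the 6 genes, CYBB, NCF1 and CYBA. The flasks of the lines did not overlap for CYBB and NCF1 and did for CYBA, and the 150 bases before each start site are shown to set them side by side. They are from RefSeq (GRCh38.p14), 5′ to 3′ on the strand of the gene. Capitals mark GAGGAA, the core bound by PU.1 and other ETS factors, CCAAT, the CCAAT box, and GGGCGG, the GC box bound by Sp1, each searched on both strands, where overlapping matches run together. In this window GAGGAA is found in 14.8% of the 35116 promoters in the table, CCAAT in 23.5% and GGGCGG in 36.8%.
CYBB, chrX:37779909-37780058, plus strand: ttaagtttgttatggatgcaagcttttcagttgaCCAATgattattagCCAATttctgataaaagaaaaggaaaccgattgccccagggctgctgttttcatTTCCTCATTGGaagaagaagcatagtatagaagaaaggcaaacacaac
NCF1, chr7:74773861-74774010, plus strand: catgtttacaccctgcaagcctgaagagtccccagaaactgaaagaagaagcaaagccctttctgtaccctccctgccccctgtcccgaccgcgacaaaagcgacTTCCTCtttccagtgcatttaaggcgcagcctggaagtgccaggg
CYBA, chr16:88651054-88651203, minus strand: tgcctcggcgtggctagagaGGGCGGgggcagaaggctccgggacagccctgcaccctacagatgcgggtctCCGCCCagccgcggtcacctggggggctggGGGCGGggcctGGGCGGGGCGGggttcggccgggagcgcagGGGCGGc
CYBB had GAGGAA on the opposite strand at positions -48 to -43, where -1 is the last base before the start, directly followed by CCAAT on the opposite strand at -42 to -38, and 2 more CCAAT matches farther up. NCF1 had GAGGAA on the opposite strand at -45 to -40 and no CCAAT or GGGCGG. CYBA had 6 GGGCGG matches and neither of the other motifs. These matches describe the letters in the window and were not tested for binding.

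SPI1, which makes PU.1, is known to act at the promoters of CYBB and NCF1. SPI1 read -2.22 and -2.35 in the naive flasks and -1.94 and -2.80 in the resistant flasks, a difference of -0.08 (SE 0.34, limma adjusted p = 0.923). The flasks of the lines overlapped. IRF8 and IRF1, interferon regulatory factors that work with PU.1 at CYBB, gave -0.68 (limma adjusted p = 0.333) and -0.93 (limma adjusted p = 0.0911). CEBPE, a factor of late granulocyte maturation, gave -0.62 (limma adjusted p = 0.244) while CEBPA gave 0.02 (limma adjusted p = 0.978) and CEBPB 0.04 (limma adjusted p = 0.974). The related lists that follow are to be read beside the array as a whole, where 2.3% of probes were called higher and 2.97% lower and the median difference was -0.02. Of the 17 transcription factors of oxidase promoters reported here all were tested, 1 was called higher and 0 lower by limma, and their median difference was 0.04.

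The factor called higher was SATB1, a chromatin organizer. SATB1 read 1.11 and 1.60 in the naive flasks and 2.73 and 2.82 in the resistant flasks, a difference of 1.42 (SE 0.26, limma adjusted p = 0.0483). Both resistant flasks were above both naive flasks, but the call sat at the threshold and was lost in 9 of 18 alternatives. With the replicate number as a block its limma adjusted p was 0.0601, and without the first or the second resistant flask, with the spread set by the naive pair, it was 0.305 and 0.392, at differences of 1.46 and 1.37. MEIS1, a homeobox partner of HOXA9, gave 1.37 (limma adjusted p = 0.0638) and missed the threshold.

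Of the other catalytic and assembly genes reported here, 8 were tested. By limma 0 of these 8 were called, with 3 at an unadjusted p below 0.05, and 0 were called by the methods' t-test. Without the first naive flask 1 of them was called, and without the second 2 were, with the spread set by the resistant pair and more calls over the whole array. Their median difference was 0.33. HVCN1, the proton channel that balances the charge moved by the oxidase, read 2.36 and 1.97 in the naive flasks and 1.23 and 0.95 in the resistant flasks. Both resistant flasks were below both naive flasks, with a difference of -1.08 (SE 0.26, limma adjusted p = 0.1). CYBC1, the chaperone needed to make the gp91phox and p22phox pair, gave 0.36 (limma adjusted p = 0.495), and RAC3 gave 0.72 (limma adjusted p = 0.256). NOXO1 and NOXA1, the organizer and activator of the colon oxidase, gave 0.41 (limma adjusted p = 0.53) and 1.23 (limma adjusted p = 0.263). Other catalytic subunits were dim. NOX3, NOX5 and DUOX1 were not well above background on any array and NOX4 on 1 naive array only. NOX1 was not well above background in the resistant flasks, where it was at least 1.36-fold lower and was not called (limma adjusted p = 0.117). DUOX2 gave 0.15 (limma adjusted p = 0.837).

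Most genes of the Rac cycle and of oxidase activation were not called. Of 27 tested, 2 were called higher and 1 lower by limma, and the median difference was 0.01. VAV1, VAV2 and VAV3 load GTP onto Rac proteins, and VAV2 and VAV3 were called in opposite directions. VAV3 read -0.19 and -0.14 in the naive flasks and 2.41 and 2.62 in the resistant flasks, with a difference of 2.68 (SE 0.22, limma adjusted p = 0.00393). VAV2 read -0.84 and -0.27 in the naive flasks and -3.03 and -2.68 in the resistant flasks, with a difference of -2.30 (SE 0.30, limma adjusted p = 0.0151). Neither had overlapping flasks, and both probes of each gene were called. Without the first or the second resistant flask VAV2 kept differences of -2.13 and -2.48 but was not called (limma adjusted p = 0.102 and 0.058), with the spread set by the naive pair. With bright local backgrounds reset before normexp the VAV2 difference was -1.79 (limma adjusted p = 0.008). With normexp alone it was -1.365 and VAV2 was not called. VAV1, the blood cell form, gave -0.25 (limma adjusted p = 0.627).

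PLA2G4A, the cytosolic phospholipase that releases arachidonic acid, read -5.95 and -8.33 in the naive flasks and -0.47 and -0.56 in the resistant flasks. It was well above background in 1 of the 2 naive flasks and in both resistant flasks. Its fitted difference was 6.62 (SE 0.76, limma adjusted p = 0.0105). It was 7.815 without the first naive flask and 5.43 without the second. The size depended on how the dim naive signals were handled, with 5.07 from the deposited table (limma adjusted p = 0.00166), 3.37 with bright local backgrounds reset before normexp (limma adjusted p = 0.00016) and 2.75 with normexp alone, where it was not called (limma adjusted p = 0.596). Both normexp settings also add an offset of 50 to every signal, which by itself narrows log2 differences of dim probes. The 3 activation genes with the highest mean, ARHGDIB and PRDX6 and CDC42, gave -0.15, 0.28 and -0.16, with limma adjusted p-values of 0.766, 0.613 and 0.766. ARHGDIB holds Rac in the cytosol in blood cells and its probe was saturated on 2 arrays. Of the kinases that phosphorylate p47phox and p40phox, PRKCB gave 0.19 (limma adjusted p = 0.743) and PRKCD -0.52 (limma adjusted p = 0.305). The other protein kinase C genes listed, PRKCA and PRKCZ, gave 0.26 (limma adjusted p = 0.69) and 0.89 (limma adjusted p = 0.157). MAPK14 gave 0.21 (limma adjusted p = 0.644) and PAK1 0.14 (limma adjusted p = 0.823). None of these kinases was called, and for PRKCZ both resistant flasks lay above both naive flasks. SYK, the kinase downstream of Fc receptors and integrins, gave -1.23 (limma adjusted p = 0.0751).

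Receptors that trigger the oxidase held calls in both directions. The array names 16 of the 17 listed, 13 were tested, 1 was called higher and 1 lower by limma, and the median difference was 0.38. ITGAM, the integrin chain CD11b that marks myeloid maturation, read -0.79 and -0.98 in the naive flasks and 0.99 and 1.26 in the resistant flasks. Both resistant flasks were above both naive flasks, with a difference of 2.01 (SE 0.24, limma adjusted p = 0.0114). Without the first or the second resistant flask its difference was 2.14 and 1.87, and with the spread set by the naive pair ITGAM was not called (limma adjusted p = 0.0767 and 0.127). Its partner chain ITGB2 gave 0.04 (limma adjusted p = 0.948).

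TLR2, a receptor for bacterial lipopeptides, read -0.55 and -0.45 in the naive flasks and was not well above background in either resistant flask. It was at least 62.7-fold lower in the resistant line (limma adjusted p = 0.000509). This bound holds for the background correction of the scanner's processed signal. The TLR2 difference was -3.45 with bright local backgrounds reset before normexp (limma adjusted p = 0.000149) and -2.45 with normexp alone, where it was not called (limma adjusted p = 0.997). The offset of 50 in both normexp settings narrows this difference by itself. TLR4, the receptor for lipopolysaccharide, gave 0.98 (limma adjusted p = 0.0773). The Fc receptor FCGR2A gave 0.97 (limma adjusted p = 0.119). FPR1, the receptor for formylated peptides, gave 0.38 (limma adjusted p = 0.611), and CSF2RA, a chain of the GM-CSF receptor, gave -0.80 (limma adjusted p = 0.204).

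Enzymes that supply NADPH or use superoxide and peroxide showed 1 gene called higher and 0 lower among the 16 tested and reported here, with a median difference of 0.05. The gene called higher was EPX, the eosinophil peroxidase. EPX read -2.86 and -3.35 in the naive flasks and -0.97 and -1.36 in the resistant flasks, a difference of 1.94 (SE 0.29, limma adjusted p = 0.0245). With bright local backgrounds reset before normexp the EPX difference was 1.30 (limma adjusted p = 0.0224). With normexp alone it was 1.135 and EPX was not called. Without the first or the second resistant flask its difference was 1.74 and 2.14, and with the spread set by the naive pair it was not called (limma adjusted p = 0.188 and 0.0947). MPO, which makes hypochlorous acid from the peroxide, GPX1 and TKT were saturated on all 4 arrays, so that a difference could be hidden. SOD1, a superoxide dismutase, was saturated on 2 arrays and was not called. PGD, an enzyme of the pentose phosphate path to NADPH, gave -0.21 (limma adjusted p = 0.734).

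**Figure D3:**
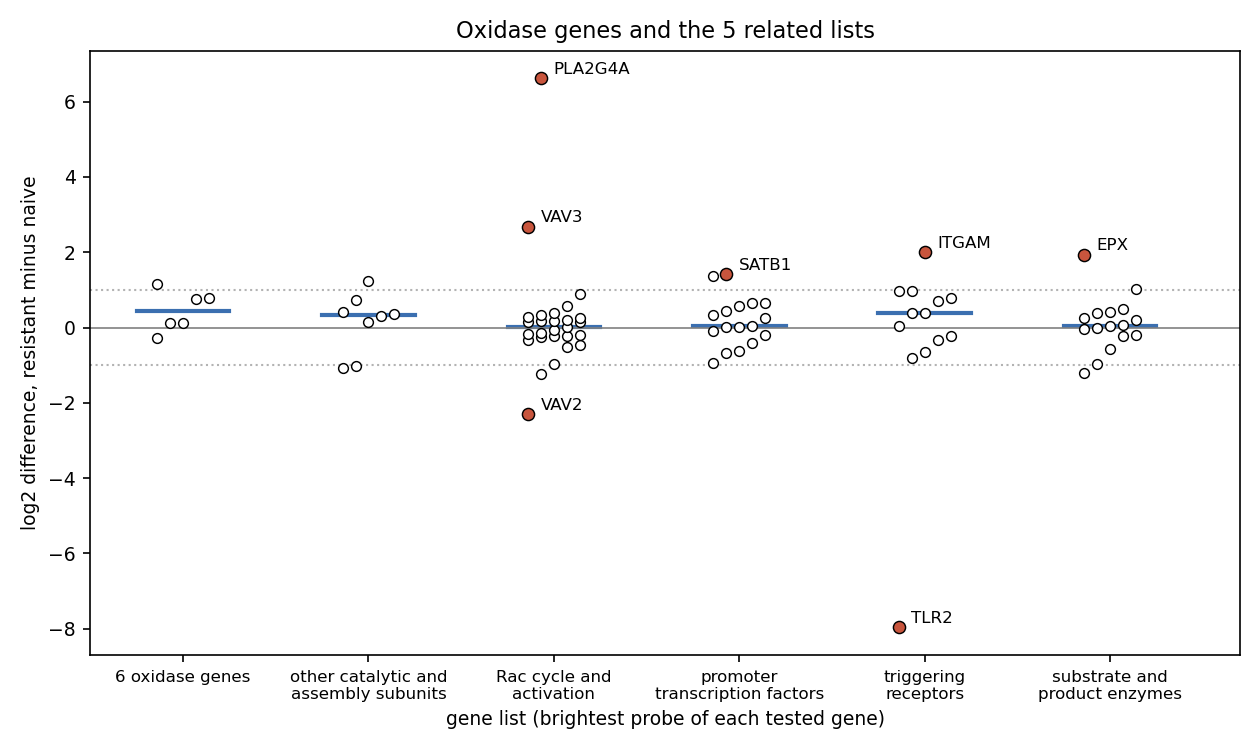
Difference in log2 signal, resistant minus naive (y axis), of the probe with the highest mean of each tested gene reported here, for the 6 oxidase genes and the 5 related lists (x axis), with red points called by limma, white points not called and a blue bar at each list's median. The 6 oxidase genes hold no red point, and the labelled red points are PLA2G4A, VAV3, VAV2, SATB1, ITGAM, TLR2 and EPX, where the fitted value of TLR2 is not a measured size, because its resistant flasks were not well above background.

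Of the 9 promyelocyte and myeloid markers, all but ELANE and KIT were well above background in every flask. KIT, a receptor of early progenitors, was well above background in 1 naive flask only and was not tested. MPO was saturated on every array, and CD33, the early myeloid surface antigen, read 2.84 and 3.16 in the naive flasks and 2.63 and 2.80 in the resistant flasks. Of 8 tested promyelocyte and myeloid markers, ELANE and AZU1 were called higher and ANPEP lower by limma. ELANE, neutrophil elastase, was well above background in both resistant flasks but in 1 of the 2 naive flasks. Its fitted difference of 2.49 (limma adjusted p = 0.0169) therefore rests in part on a dim naive signal. With normexp alone 0 of the 28221 tested probes were called, so the call of ELANE was lost there. The size of its difference under other background corrections is not reported here. AZU1, azurocidin, gave 1.17 (limma adjusted p = 0.0472) and ANPEP, the aminopeptidase CD13, -1.83 (limma adjusted p = 0.0112). The naive flasks stood far apart for PRTN3, proteinase 3, at 3.16 and 0.80, and for LYZ, lysozyme, at -0.23 and -2.20, and neither gene was called. The summed signal of the myeloid list, on the linear scale relative to the 75th percentile, was 143 and 126 in the naive flasks and 155 and 186 in the resistant flasks, with MPO its brightest probe. MPO was saturated on all 4 arrays and CTSG, cathepsin G, on 2, so these sums were not compared between the lines.

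Markers of monocytes and of late neutrophils were measured because those cells are rich in the oxidase. Of the 4 monocyte or macrophage markers reported here 3 were tested and 0 were called by limma. Their summed signal was 3.50 and 3.84 in the naive flasks and 7.13 and 8.01 in the resistant flasks. CSF1R, whose probe was the brightest of them, gave 1.23 (limma adjusted p = 0.0519), while CD14 gave -0.50 (limma adjusted p = 0.3) and CD68 -0.18 (limma adjusted p = 0.734). CD163 was not well above background on any array.

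Of 5 late neutrophil markers, FCGR3B, CEACAM8 and LTF were not well above background on any array. CXCR2, a chemokine receptor, was called higher (2.73, limma adjusted p = 0.00364) and MMP9, gelatinase B, lower (-2.01, limma adjusted p = 0.009). The summed signal of this list, in which the MMP9 probe was the brightest, was 43.3 and 42.0 in the naive flasks and 10.2 and 11.5 in the resistant flasks. In bulk RNA of this kind, fewer cells of a type and less RNA per cell cannot be told apart. The part of CSF1R, CXCR2 and ITGAM in the oxidase values was not tested.

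Several markers of other lineages were not detected. MS4A1, HBB, PPBP, COL1A1 and COL3A1 were not well above background on any array. The T cell markers CD3D and CD3G were called lower, whereas CD3E gave -0.01 (limma adjusted p = 0.984). On the processed signal CD3D was at least 169-fold lower. With normexp alone 0 probes were called over the array, so the calls of CD3D and CD3G were lost there. The size of the CD3D difference under other background corrections is not reported here. The summed signal of the 3 T cell markers was 1.70 and 2.32 in the naive flasks and 0.06 and 0.07 in the resistant flasks. KRT18 of the epithelial list was called lower (-4.16, limma adjusted p = 0.00213). For ITGA2B of the megakaryocyte list 1 of its 2 probes was called lower (-2.40, limma adjusted p = 0.0318), and the other gave -1.63 (limma adjusted p = 0.0708). The summed signals were 1.29 and 1.96 in the naive flasks and 1.68 and 1.72 in the resistant flasks for the megakaryocyte list, with GP9 its brightest probe. Those of the stroma or epithelium list, with EPCAM its brightest probe, were 6.81 and 8.78 against 2.79 and 3.18. B cell markers, with CD79A the brightest, summed to 1.37 and 1.09 in the naive flasks and 1.49 and 1.59 in the resistant flasks, and erythroid markers, with ALAS2 the brightest, stayed under 0.10 in every flask.

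The genes whose pattern over the 4 arrays was most like that of each oxidase gene were found among 18213 probes by the distance between log2 values centred on each probe's mean. CYBB was nearest to ZNF775 and DUSP3, at distances of 0.029 and 0.033, and NCF1 to C4orf33 and AFF1 at 0.070 and 0.074. NCF4 was nearest to MAP2K5 and NDFIP1 at 0.056 and 0.061. CYBA was nearest to FSAF1 and TIMM13 at 0.014 and 0.022, RAC1 to KLHL23 and PCNP at 0.017 and 0.020, and RAC2 to DOK3 and CLHC1 at 0.032 and 0.040. With 4 points per gene such likeness is a description of these arrays only.

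By the probe with the highest mean of each gene, the directions of CYBB, NCF1, NCF4 and RAC1 were the same under each of the 17 alternatives run, with differences from 0.61 to 0.97 for CYBB, 0.85 to 1.46 for NCF1, 0.52 to 0.96 for NCF4 and -0.48 to -0.06 for RAC1. Those of CYBA and RAC2 crossed 0, between -0.11 and 0.28 and between -0.04 and 0.33. The alternatives that changed only the filter, the test, the block or the variance trend left each difference as it was. They therefore could not turn a direction. For CYBB, NCF1 and NCF4 a left-out flask could not turn it either, because both resistant flasks lay above both naive flasks. On their other probes the differences of CYBB and NCF1 stayed above 0 under these alternatives, with NCF1 probe A_23_P42746 reaching 1.68 without the first naive flask. RAC1 probe A_32_P217709 turned to 0.08 without the first naive flask. Without the second naive flask both CYBB probes and the NCF4 probe reached a limma adjusted p under 0.05 (0.0204 and 0.0378 for CYBB, 0.0207 for NCF4) but stayed under 2-fold, as did RAC1 probe A_32_P217709 (-0.74, limma adjusted p = 0.0498).

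**Figure D4:**
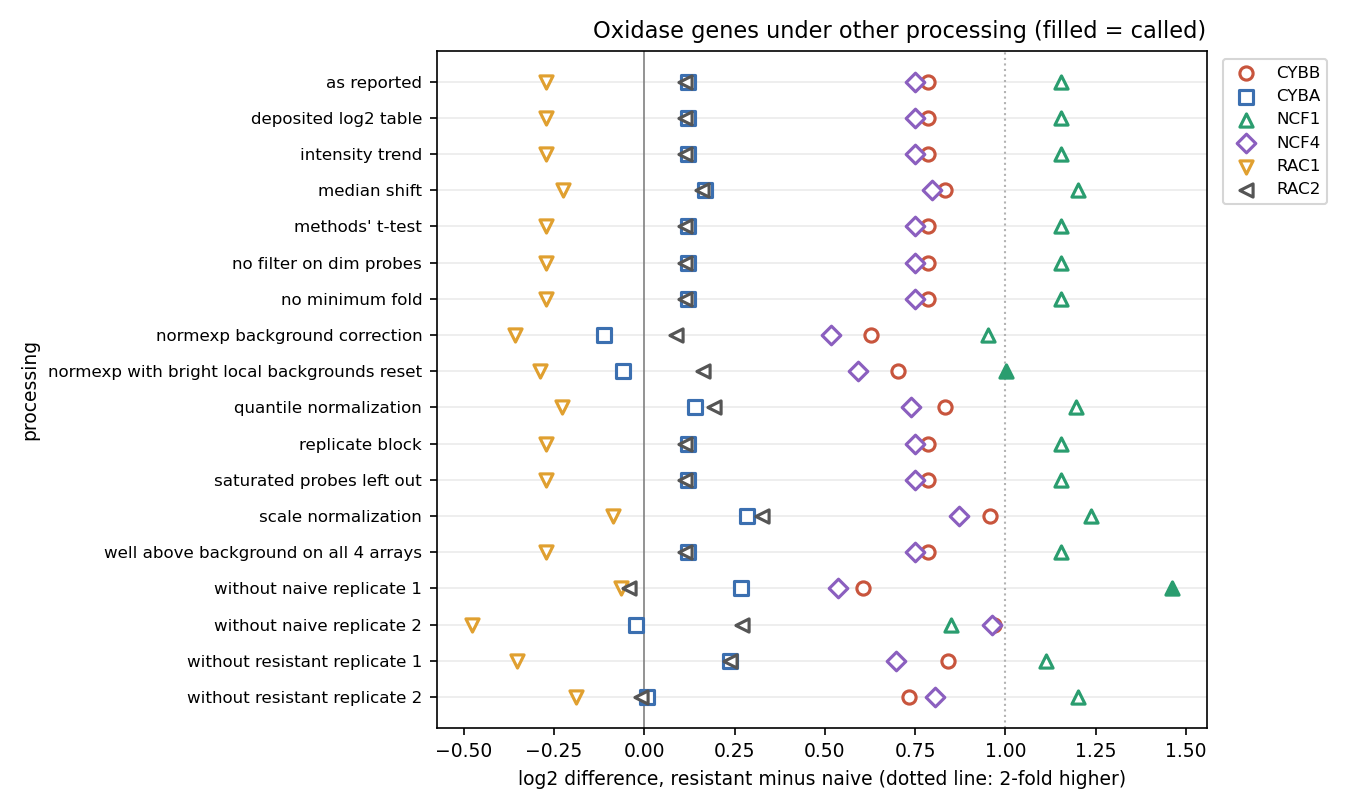
Difference in log2 signal, resistant minus naive (x axis), of the 6 oxidase genes by their probe with the highest mean, as reported and under each of 17 alternatives (y axis), with filled points called by limma. CYBB, NCF1 and NCF4 stay right of 0 and RAC1 left of it throughout, CYBA and RAC2 lie on either side, and the filled points are NCF1 with bright local backgrounds reset and NCF1 without the first naive flask.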

How the data were processed

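Cy3-labeled RNA of 2 flasks per line was measured on whole human genome arrays from Agilent. The authors deposited the Feature Extraction 10.5.1.1 output, whose processed signal is a background-subtracted intensity on a linear scale, next to mean spot signal and local background intensity. A second deposited table holds log2 values after a 75th percentile shift in GeneSpring GX. The resistant clone is NB4-EV-AsR1 in the methods and NB4-VM-AsR1 in the labels, here taken for the same clone.

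Control and outlier spots were left out, spots of a probe were averaged, and log2 minus the array's 75th percentile was taken in R 4.3.3. The values matched the deposited table (Pearson's r across probes of at least 0.9998 on every array). Tested probes were well above background in both flasks of 1 or both lines. Lines were compared with limma 3.58.1 (lmFit, eBayes) over all 28221 such probes. The Benjamini-Hochberg adjusted p-values test the difference between the line means against the spread between flasks. For each gene the probe of highest mean was used. For a probe not well above background in a line a lower bound was computed against the lowest signal well above background on each array. Probe positions are hg19 from the file headers, and current names came from RefSeq (26222 of 41000 probes). Arrays have no read depth, and their number limits the precision.

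The members, gene lists and markers were chosen with earlier results of these data known. Some listed genes are not reported here, so that the counts and medians of lists leave them out and do not describe whole lists. The text names all 6 members, and from each list the called genes, the 3 with the highest mean, and genes with a role described. Alternatives were background correction, normalization, filters, test, threshold, block, left-out flasks and the mean over probes. Both normexp corrections add an offset of 50 to every signal, which by itself narrows log2 differences, most of all those of dim probes. The slide could not be a block, since all arrays lay on 1 slide.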

Additional observations from a re-analysis of the deposited data

How the results depend on the processing

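The replicate number as a block gave 1375 called probes over the array and 0 of the oxidase probes, and it ended the call of SATB1 but not those of VAV2, VAV3, PLA2G4A, ITGAM, TLR2 and EPX. Its effect on the calls of single cell type markers is not reported here. The block left 0 called transcription factors. Same-numbered flasks deviated together only weakly (Pearson's r = 0.119 over probes, 2 pairs), so the numbers were not taken as pairs. The count of 1487 called probes was 760 when a probe had to be above background on all 4 arrays, and 0 by limma with normexp (929 at an unadjusted p below 0.05) and 0 by the methods' t-test (4138 at that level). These settings with 0 calls also left 0 called genes in each of the 5 related lists. It ranged from 728 to 4536 with a flask left out.

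Oxidase probes called rose from 0 to 2 with bright local backgrounds reset before normexp (1189 called over the array), to 1 with scale normalization (1948 over the array), and lay between 0 and 2 with a flask left out, and in each of these cases the called probes were those of NCF1. The NCF1 difference was 1.00 (limma adjusted p = 0.0458) with the reset and ranged from 0.85 to 1.46 with a flask left out. CYBA turned to -0.11 with normexp and -0.059 with the reset, and ranged from -0.024 to 0.27 with a flask left out. RAC2 ranged from -0.043 to 0.27 with a flask left out. The median over all probes moved by 0.10 under scale normalization and by 0.15 under normexp.

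Called genes ranged with a flask left out from 0 to 2 for other catalytic and assembly subunits, 2 to 6 for the Rac cycle, 0 to 2 for transcription factors, 1 to 6 for receptors and 0 to 3 for enzymes. With the reset the catalytic and assembly list had 1 in place of 0. The transcription factors had 2 with scale normalization or a median shift, and 0 when dim probes were kept, when a probe had to be above background on all 4 arrays, or when saturated probes were left out. Receptors had 1 when a probe had to be above background on all 4 arrays, and enzymes had 0 when dim probes were kept. The cause of these changes was not tested.

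Of 102 alternative values for the 6 genes 95 kept their direction and whether they were called. Alternatives that changed only the filter, the test, the block or the variance trend kept each difference by construction. The count is therefore not a measure of how stable the directions were. Without the second naive flask CYBB, NCF4 and NCF1 had limma adjusted p-values of 0.0204, 0.0207 and 0.0302 but were under 2-fold. With a flask left out, the lone flask of its line was assumed to vary like the other line. With 2 flasks per line, the half-width of the 95% interval was between 0.62 and 0.72 log2 units for the 6 genes.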
